A study of Mus musculus with 20 samples.

Results

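The variable (V) genes of the T-cell receptor (TCR) alpha chain, whose mouse symbols begin with Trav, were followed by family and by position along their locus in CD4 single-positive (CD4SP) thymocytes, follicular helper T (TFH) cells and T-cell lymphomas. They were chosen by symbol alone, though with earlier results of these data known, and 103 of the 39179 genes in the authors' table matched. The annotation used here, GENCODE release M21, lists 128 Trav genes, and the other 25 were not analysed here. All 103 lie on chr14:52427928-53876752 of GRCm38 (mm10), on the plus strand. They fall into 21 families, and 5 of them are annotated as pseudogenes.

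RNA was sequenced from 20 samples of C57BL/6 mice in 5 groups. Control CD4SP thymocytes (5 samples), CD4SP thymocytes labelled Id3-/- (3 samples) and Id2-/-Id3-/- CD4SP thymocytes (3 samples) had been sorted as CD4+TCRb+CD8- cells, and the study's text gives the mice as 8 wk old. The labels call the controls wild type, whereas the study's text names Id3+/- or littermate controls, so the controls may lack 1 Id3 allele. The Id2-/-Id3-/- thymocytes came from Id2fl/fl Id3fl/fl IL7R-Cre mice, in which Cre acts from lymphoid progenitors on. TFH cells (3 samples) were CD4+TCRb+CD44highCXCR5+ spleen cells. Their donors were wild type, had been immunized with sheep erythrocytes and are of an age not given in the labels. The 6 lymphomas carry the genotype label Id2_Id3_dKO. They were sorted as CD3+TCRb+ cells, 4 of them CD4+ and 2 CD8+, from lymph node (4), spleen (1) and thymus (1), and the Cre line of each is not given in the labels. The study's text describes such tumors in mice of 8 to 14 mo. TFH cells and most lymphomas therefore differ from the control thymocytes in tissue as well as in state.

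The alpha chain is assembled in CD4+CD8+ thymocytes by joining 1 V segment to 1 joining (J) segment. Early joins use V segments at the 3' end of the V array, the end nearest the J segments. Later rounds, for as long as the thymocyte survives unselected, reach V segments farther toward the 5' end. The C57BL/6 array contains duplicated blocks, and copies are marked d or n in the gene symbol. The delta chain locus lies within the alpha locus, and V genes used by both chains carry an additional Dv name. A V gene is spliced to the constant gene Trac in a mature transcript, so the Trav sum is read here beside Trac. The study sequenced these cells to ask whether the population that expands without Id2 and Id3 derives from few selected thymocytes.

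The values are the authors' means of normalized counts per group. No comparison below could therefore be tested, and no spread, interval or detection limit can be given. Depth is unknown, and how many libraries carry a gene cannot be read from a mean. A mean over libraries that use different genes can be broader than each library, and the groups hold unlike numbers of libraries. Numbers of genes in use therefore describe group means and not single samples. Differences are given as values only.

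Sequences of the genes that led the group differences are shown first, as spliced coding sequence from GENCODE M21 on GRCm38, from 2 exons on the plus strand, 5' to 3'. Coordinates are those of the whole coding span, and the letters are the last 300 coding bases, which leave out most of the leader. Trav9d-3 (chr14:52920678-52921112) and Trav9n-3 (chr14:53231668-53232102) led in Id2-/-Id3-/- thymocytes. Their 340 coding bases are identical, so 1 sequence stands for both, and reads from them cannot be told apart by these bases.
Trav9d-3: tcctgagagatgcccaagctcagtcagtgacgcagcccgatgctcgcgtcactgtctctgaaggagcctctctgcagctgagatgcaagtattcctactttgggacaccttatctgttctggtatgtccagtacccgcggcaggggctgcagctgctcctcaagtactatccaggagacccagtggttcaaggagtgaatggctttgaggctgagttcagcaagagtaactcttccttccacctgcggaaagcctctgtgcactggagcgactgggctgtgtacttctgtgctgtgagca
Trav5-1 (chr14:52622566-52623082) and Trav6-1 (chr14:52638515-52638962) lie near the 5' end of the array and are named in the study. Within its own family the nearest relative of Trav5-1 among the annotated genes was Trav5d-4, at 81.0% identity, and that of Trav6-1 was Trav6-2, at 93.3%. Genes of other families were not compared.
Trav5-1: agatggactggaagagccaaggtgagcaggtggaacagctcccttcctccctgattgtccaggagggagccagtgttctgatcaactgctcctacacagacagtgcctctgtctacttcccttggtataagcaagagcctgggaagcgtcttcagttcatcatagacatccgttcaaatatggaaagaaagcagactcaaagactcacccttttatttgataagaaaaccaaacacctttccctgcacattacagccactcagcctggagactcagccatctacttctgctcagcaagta
Trav6-1: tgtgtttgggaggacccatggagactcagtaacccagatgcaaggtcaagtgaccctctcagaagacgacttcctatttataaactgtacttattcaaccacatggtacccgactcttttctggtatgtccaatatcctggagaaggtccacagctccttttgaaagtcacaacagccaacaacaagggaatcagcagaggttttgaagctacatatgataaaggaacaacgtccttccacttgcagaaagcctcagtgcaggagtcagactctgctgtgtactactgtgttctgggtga
Trav7-2 (chr14:53390635-53391142) and Trav7-4 (chr14:53461209-53461738) are the leading family pair of the lymphomas and differ from each other by 38 edits (88.9% identity). Capitals mark the bases with no identical partner in the other gene. Trav7-2 differs by 1 base from Trav7d-2, which was not analysed here, so its values may hold reads of both.
Trav7-2: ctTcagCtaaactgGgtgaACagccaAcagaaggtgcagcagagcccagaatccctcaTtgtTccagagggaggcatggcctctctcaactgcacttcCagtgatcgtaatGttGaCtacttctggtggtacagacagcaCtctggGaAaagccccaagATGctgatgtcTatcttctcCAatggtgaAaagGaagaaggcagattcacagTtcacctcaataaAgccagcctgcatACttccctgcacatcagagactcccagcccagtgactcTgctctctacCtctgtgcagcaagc
Trav7-4: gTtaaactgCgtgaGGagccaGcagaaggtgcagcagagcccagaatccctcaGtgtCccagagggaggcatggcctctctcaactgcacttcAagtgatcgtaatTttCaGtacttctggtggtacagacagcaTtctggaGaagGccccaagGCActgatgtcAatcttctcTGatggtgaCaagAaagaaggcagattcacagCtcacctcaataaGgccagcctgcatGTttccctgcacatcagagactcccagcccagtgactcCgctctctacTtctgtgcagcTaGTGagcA
Trav11 (chr14:53519303-53519859) encodes the V part of the alpha chain of invariant natural killer T (NKT) cells. Its copy Trav11d (chr14:52824357-52824912) has the same coding sequence without the last base, the capital below.
Trav11: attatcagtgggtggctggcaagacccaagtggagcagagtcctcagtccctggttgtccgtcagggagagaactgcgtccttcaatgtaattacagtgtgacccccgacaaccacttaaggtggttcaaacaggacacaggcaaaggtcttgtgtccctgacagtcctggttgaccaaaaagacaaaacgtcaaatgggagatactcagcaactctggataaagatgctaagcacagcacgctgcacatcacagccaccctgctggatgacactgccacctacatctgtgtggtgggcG

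In control CD4SP thymocytes transcripts were spread over nearly all genes of the array. The 103 group means summed to 4867 normalized counts beside 7953 for Trac, and all 103 were above 1. The median gene averaged 38.2 normalized counts. The effective number of genes, the exponential of the Shannon index of their shares, was 76.6. The most used gene, Trav9-1, averaged 172 normalized counts, 3.54% of the Trav sum, and the 5 most used genes (Trav9-1, Trav7-2, Trav14d-1, Trav7-4 and Trav9-4) together held 16.4%. The lead of Trav9-1 over Trav7-2 (171.8 normalized counts) reversed per exonic length, at 3.47% for Trav9-1 and 4.10% for Trav7-2. It took 23 genes to reach 50% of the Trav sum and 69 to reach 90%.

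Families were used unequally and differ in gene number. Trav14, with 9 genes, held 18.3% of the control sum, Trav9 with 11 genes 15.3%, Trav7 with 7 genes 11.6%, Trav6 with 15 genes 11.3% and Trav12 with 9 genes 7.33%. Per exonic length these 5 shares were 17.6%, 13.4%, 11.7%, 12.1% and 6.93%. Trav18 and Trav20, with 1 gene each, held 0.0580% and 0.0413%. Counted by family the effective number was 11.9 of 21 in control cells, 11.8 for TFH, 12.1 for the Id3-/- labelled libraries and 11.0 for Id2-/-Id3-/- thymocytes. The lymphomas stood apart with 4.01.

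**Figure D1:**
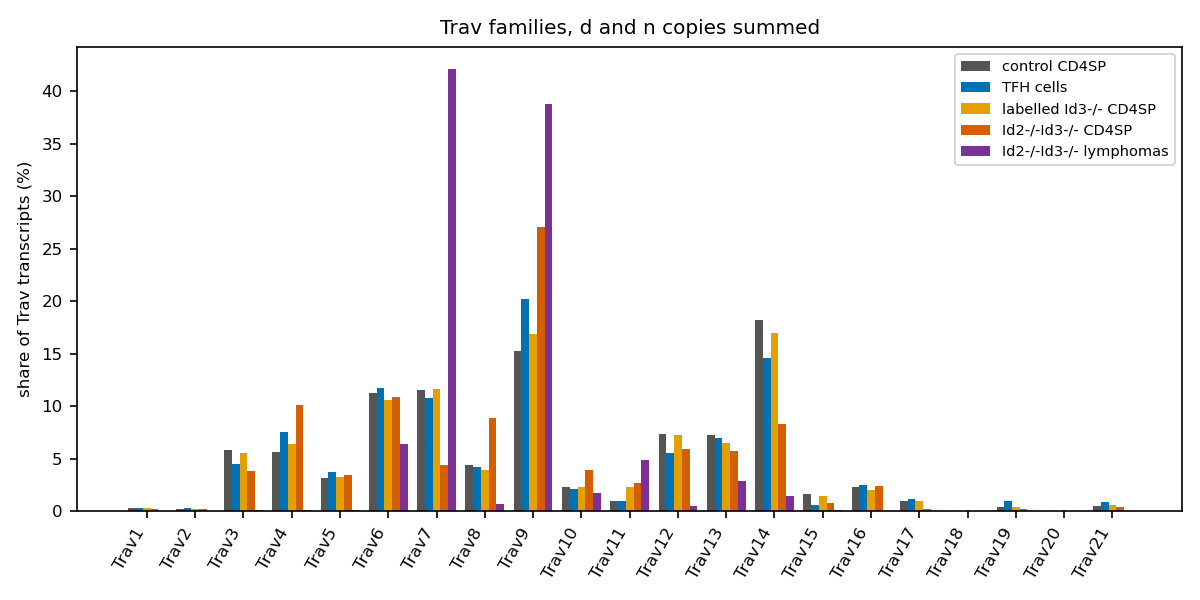
Share of the Trav sum (percent, vertical axis) for each of the 21 Trav families (horizontal axis), with 1 bar per group from the group means and no error bars, since values per sample were not used here. Trav7 and Trav9 hold 42.1% and 38.8% in the lymphomas, and Trav14, the leading family in control cells at 18.3%, holds 1.49% there.

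TFH cells also used a broad array, with a partly different lead. The Trav sum was 4843 normalized counts beside 10216 for Trac, a Trav to Trac ratio of 0.474, against 0.612 in control cells. The effective number of genes was 69.9, and 21 genes reached 50% of the sum. Trav9-1 averaged 318 normalized counts, 6.56% of the sum and 6.43% per exonic length, followed by Trav9-4 at 199 and Trav9-2 at 150.2. Families were ranked where they held at least 1% of the sum in either group, 15 of the 21 here. Family Trav9 held 20.2%, a share 1.32 times that in control cells, and Trav4, at 7.52%, was also 1.32 times. Trav17 was 1.29 times, Trav5 1.19 times and Trav16 1.09 times. At the other end Trav15, whose genes mostly carry a Dv name, held 0.576% against 1.61%, a ratio of 0.358. Trav12 (0.762), Trav3 (0.782), Trav14 (0.799) and Trav10 (0.915) followed.

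Among the 98 Trav genes with a group mean of at least 10 normalized counts in at least 1 group, 2 were at least 2-fold higher in TFH cells than in control cells and 7 at least 2-fold lower, on the log2 scale with 1 normalized count added. Of the 15536 genes of the whole table that met the same minimum, 11.8% were higher and 9.8% lower by that rule. The corresponding shares of the 98 Trav genes were 2.04% and 7.14%. The 2 higher genes, named after their values were seen, were Trav6n-5 (14.2 against 4.36 normalized counts) and Trav19 (48.3 against 19.4). Among the 7 lower genes, and also named after their values were seen, were the Dv genes Trav15-1-dv6-1 (6.09 against 37.3) and Trav15d-1-dv6d-1 (8.22 against 19.7). The others, Trav6-1, Trav10d, Trav11d, Trav12d-1 and Trav14n-1, carry no Dv name. The summed share of the 9 genes with a Dv name was 8.40% in TFH cells and 7.95% in control cells. The share of Dv genes as a class was thus not lower in TFH cells. Trav11d was listed at 0 in TFH cells and at 18.5 in control cells, while Trav11 averaged 47.7 and 31.8. Summed, both copies averaged 47.7 in TFH cells and 50.3 in control cells. The last gene of the array, Trav21-dv12, averaged 43.0 in TFH cells and 25.4 in control cells. The first, Trav1, which encodes the V part of the alpha chain of mucosal-associated invariant T (MAIT) cells, averaged 17.1 and 17.8.

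CD4SP thymocytes labelled Id3-/- had the profile closest to control. The percentage of the 2 profiles that is shared, summed as the smaller of both shares over the 103 genes, was 90.8% for these libraries, 85.9% for TFH cells, 60.8% for Id2-/-Id3-/- thymocytes and 21.2% for lymphomas. All 4 values use the same control means. The whole-gene Id3 mean was 2650 normalized counts in these libraries and 1991 in control cells, so it does not show the labelled knockout. The Trav sum was 4423 normalized counts, the effective number of genes 74.3, and the leading 5 genes were those of control cells in another order, from Trav9-1 (176.5 normalized counts) to Trav14d-1 (130.1). Of the 98 genes 5 were at least 2-fold higher and 4 lower, against 5.57% and 4.43% of the whole table. With 5 normalized counts added in place of 1, 2 were higher and 1 lower.

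Among the 14 families with at least 1% of the sum in either group, Trav11 had the largest ratio of shares in the libraries labelled Id3-/-. Its share was 2.30% against 1.03% in control cells, a ratio of 2.23, while the ratios of the other 13 ran from 0.884 for Trav16 to 1.12 for Trav4. Trav11 averaged 101.6 normalized counts and Trav11d was listed at 0, with 31.8 and 18.5 in control cells. Since the copies share their coding sequence, the sum of 101.6 against 50.3 is the safer value. Zbtb16, which encodes PLZF, a transcription factor of NKT and other innate-like T cells, averaged 733 normalized counts in these libraries and 116 in control cells. The other invariant NKT genes listed were lower or differed less, with Klrb1c at 22.9 against 73.7, Cd160 at 39.2 against 57.5 and Tbx21 at 88.2 against 62.7. Their part in the Trav11 value was not tested, and more cells of a type cannot be told apart from more RNA per cell in bulk samples.

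In Id2-/-Id3-/- CD4SP thymocytes the total was close to that of control cells but was spread over the genes differently. Id2, at 6.82 normalized counts against 2293, was near 0 in these cells, and Id3 averaged 880 against 1991. The Trav sum was 4853 normalized counts beside 7477 for Trac, a ratio of 0.649. The effective number of genes was 57.7 and the median gene averaged 23.1 normalized counts. It took 14 genes to reach 50% of the sum and 62 to reach 90%, so in the group mean a broad low level lay under a few high genes. The study reports that V gene usage was not the same in the Id2-/-Id3-/- mice it compared. The top 5 genes held 28.0%, against 16.4% for the top 5 of control cells. With 3 libraries, a gene used by 1 library alone could reach 33.3% of the sum if the libraries had equal Trav totals. The leading gene, Trav9n-3, was at 8.52%, and joined with its identical copy Trav9d-3 it was at 16.1%.

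The 5 leading genes of this group were not among the 5 leading genes of control cells. Their single shares in control cells ran from 0.460% for Trav8d-2 to 1.06% for Trav4d-4 and Trav4n-4. Trav9n-3 averaged 413.5 normalized counts and Trav9d-3 368, each against 46.5 in control cells. Together they held 16.1% of the sum (11.2% per exonic length) against 1.91% in control cells. Trav8d-2 averaged 224 normalized counts against 22.4 in control cells, a share of 4.62%, and was number 3 in the order of the 103 genes here and number 76 in control cells. Its copy Trav8n-2 averaged 109 against 32.1, and the proximal copy Trav8-2, annotated as a pseudogene, averaged 29.3 against 64.6. Trav4d-4 and Trav4n-4, identical in coding sequence, averaged 177 each, against 51.6 each. Trav11 averaged 99.1 normalized counts and Trav11d 32.3, and Trav1 averaged 12.0 against 17.8.

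Among the 14 families with at least 1% of the sum in either group, Trav11 (2.62 times), Trav8 (2.00 times), Trav9 and Trav4 (1.77 times each) and Trav10 (1.67 times) had the largest ratios of shares to control. Trav7 (0.382), Trav14 (0.454), Trav15 (0.479), Trav3 (0.656) and Trav13 (0.793) had the smallest. Trav14 had been the leading family of control cells and was the fifth here, at 8.29%. Trav9 led with 27.1%, and without its Trav9d-3 and Trav9n-3 copies the family's other sets were at or below the control shares except Trav9-2, at 3.06% against 2.76%. Copies of 1 family thus differed in direction: Trav9-1, Trav9-2 and Trav9-4, the proximal members, averaged 119, 69.3 and 67.7 normalized counts against 172, 115.7 and 136.8.

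The array was divided by its d and n copies into the 6 genes upstream of the first d copy (distal), the block of 32 d copies, the block of 25 n copies and the 40 genes downstream of the last n copy (proximal). Some annotated d and n copies, among them Trav7d-2, Trav13n-1, Trav15n-2 and Trav7n-6, were not analysed here. Their reads may be missing from the d and n blocks or counted under like genes of other blocks. In control cells the proximal genes held 51.4% of the sum and the distal genes 2.43%. TFH cells had 58.0% and 2.19%, and the libraries labelled Id3-/- 54.0% and 2.47%. In Id2-/-Id3-/- thymocytes the proximal share was 31.2% and the distal share 6.07%, with 32.6% in the d block and 30.1% in the n block, where control cells had 25.4% and 20.8%. Per exonic length the proximal shares of control and Id2-/-Id3-/- cells were 51.8% and 32.4%, and the distal shares 2.63% and 7.01%. The mean position of a Trav transcript, weighted by level, lay 893 kb from Trav1 in control cells and 784 kb in Id2-/-Id3-/- thymocytes, with TFH cells at 935 kb and the Id3-/- labelled libraries at 912 kb.

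**Figure D2:**
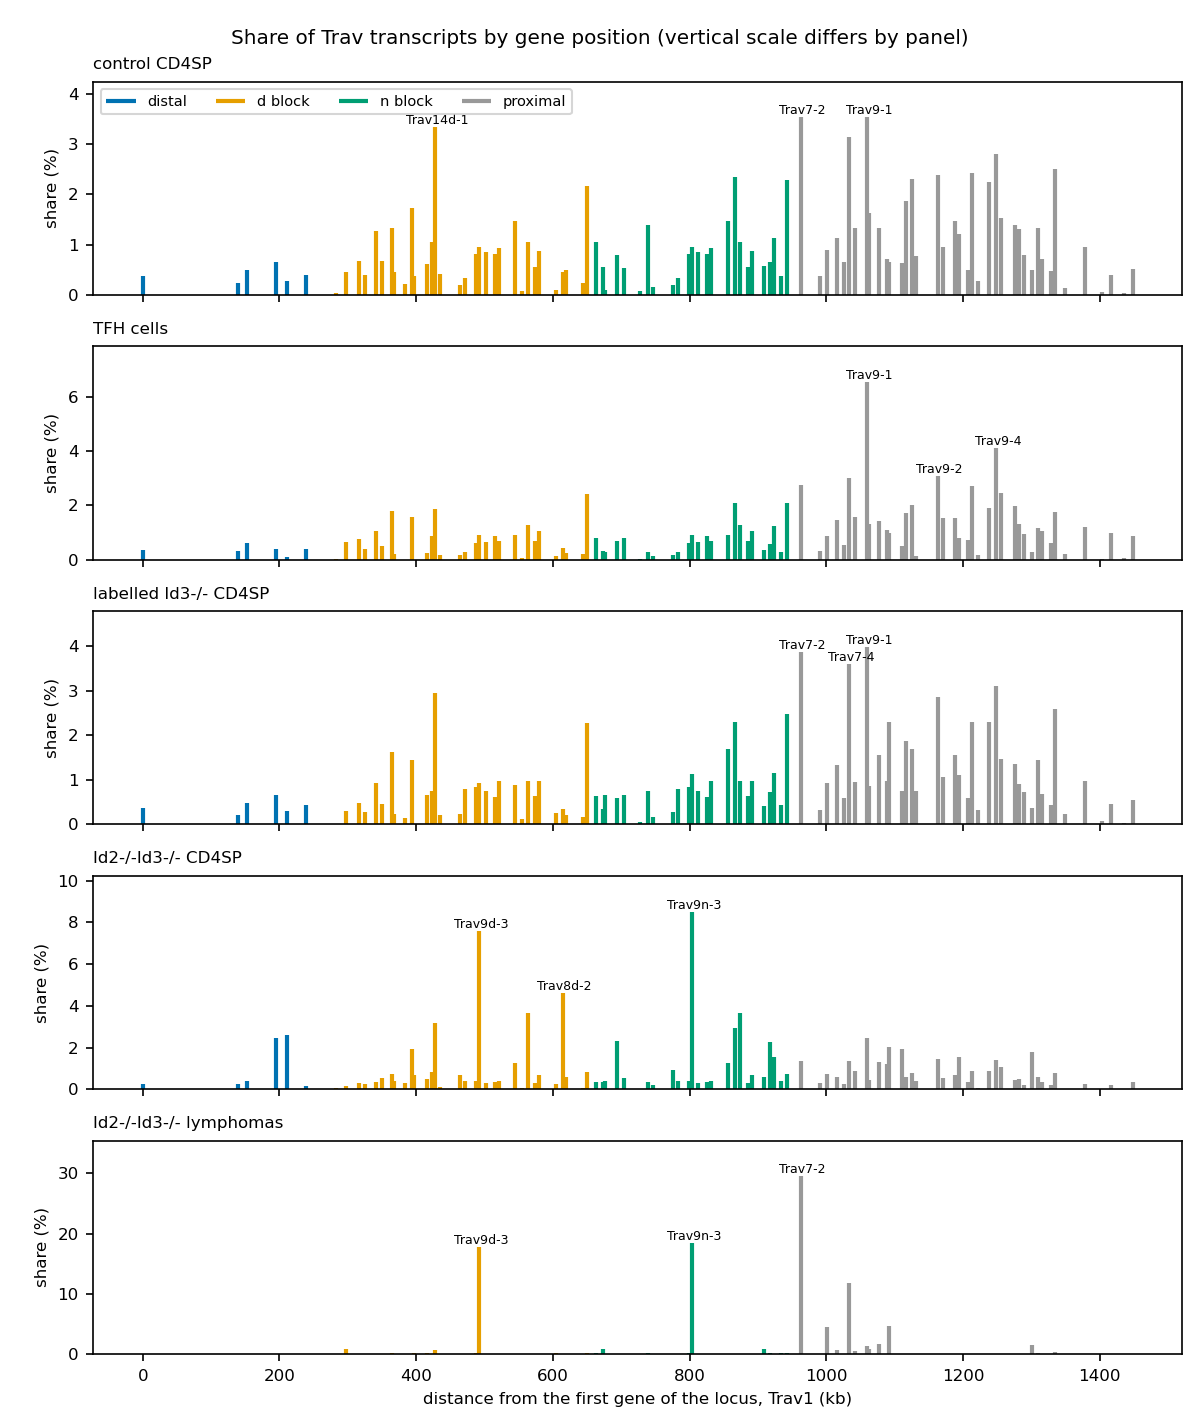
Share of the Trav sum (percent, vertical axis, scaled separately in each panel) of each of the 103 genes at its distance in kb from Trav1 (horizontal axis), 1 panel per group, colored by block, with the 3 highest genes named. In Id2-/-Id3-/- CD4SP cells the highest genes lie in the d and n blocks, and in the lymphomas a few genes hold nearly all of the sum.

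The distal value rested on 2 of its 6 genes. Trav5-1 averaged 119 normalized counts against 32.1 in control cells (18.8 in TFH cells and 29.1 in the libraries labelled Id3-/-). Trav6-1 averaged 125.5 against 13.7 (5.45 and 13.8). The remaining distal genes averaged 12.0, 12.7, 18.4 and 6.74 normalized counts in Id2-/-Id3-/- thymocytes (Trav1, Trav2, Trav3-1 and Trav6-2) against 17.8, 11.9, 23.7 and 19.1 in control cells. Of the 6 distal genes 2 were thus at least 2-fold higher and 1, Trav6-2, lower. At the other end the 5 genes nearest the J segments held 0.891% of the sum in Id2-/-Id3-/- cells, 1.96% in control cells and 3.20% in TFH cells. Genes with a Dv name held 4.08%, against 7.95%.

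Gene by gene, 16 of the 98 Trav genes were at least 2-fold higher in Id2-/-Id3-/- than in control thymocytes and 37 at least 2-fold lower, where 14.1% and 10.1% of the whole table were. The share of higher genes (16.3%) was near the background, and that of lower genes (37.8%) was above it. The median log2 ratio of the 98 genes was -0.56, against 0.02 for the table. The proximal block had 3 higher and 19 lower among 38 genes (median log2 ratio -0.99), the n block 6 and 7 among 24 (0.02), the d block 5 and 10 among 30 (-0.35) and the distal genes 2 and 1 among 6 (-0.13). Higher and lower genes thus occurred in every block, with the lowest median in the proximal block.

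**Figure D3:**
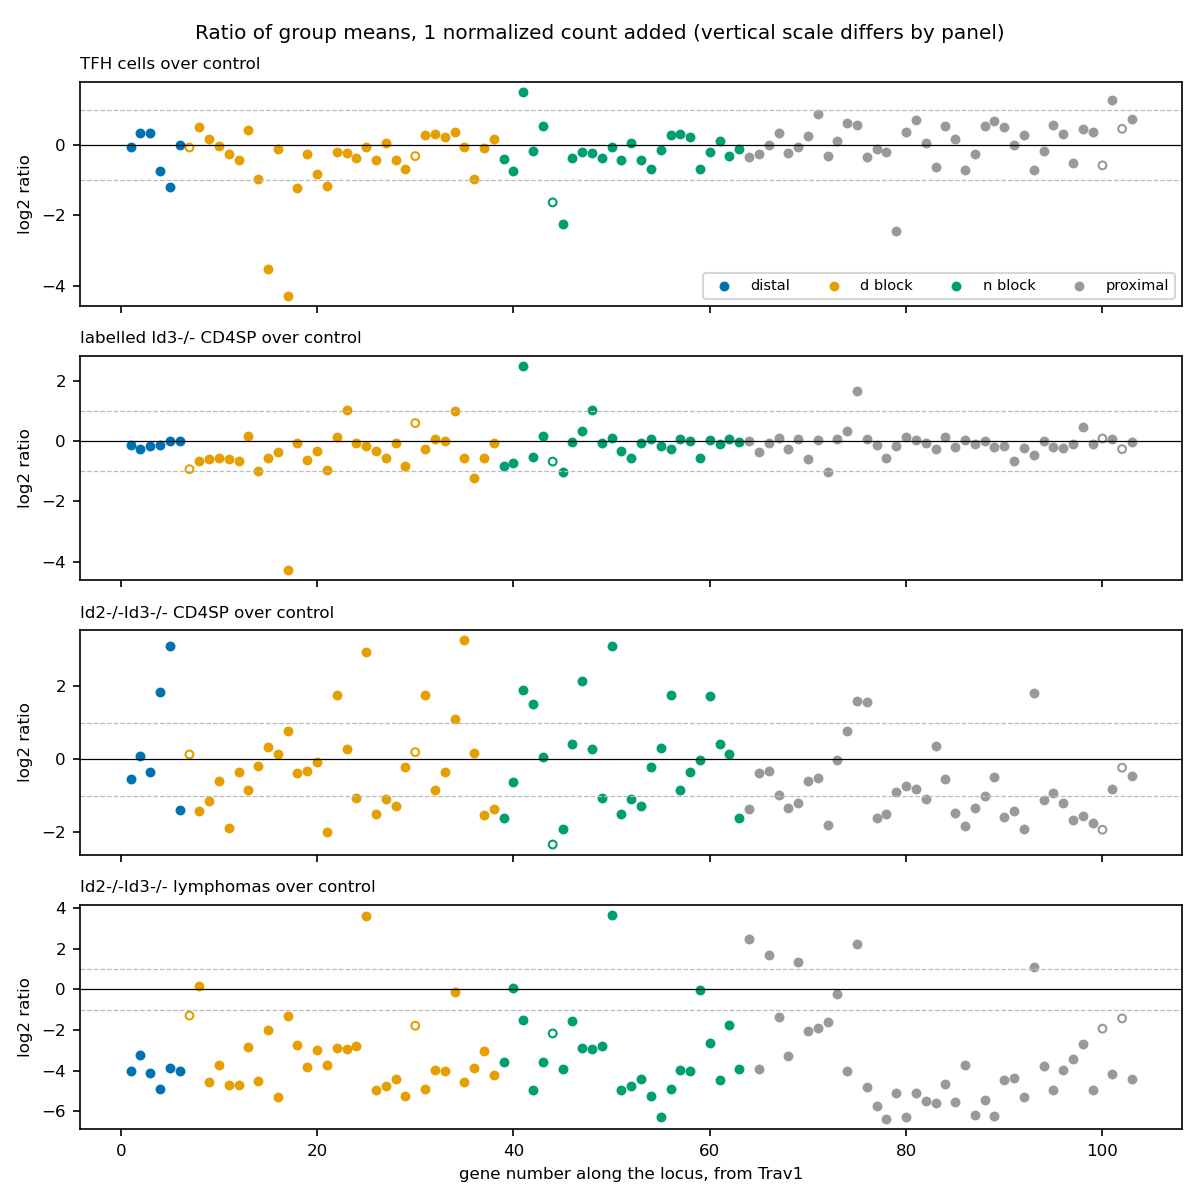
Log2 ratio of group means with 1 normalized count added (vertical axis, scaled separately in each panel) against gene number along the array from Trav1 (horizontal axis), for each of 4 groups over the same control means, colored by block. Open points are genes under 10 normalized counts in every group and dashed lines mark 2-fold. In Id2-/-Id3-/- CD4SP cells 19 of 38 proximal genes lie at or below the lower line, and in the lymphomas 86 of 98 genes do.

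The copies of single genes were compared next. For 24 sets with an original, a d and an n copy in the table, the original copy, which lies downstream in the proximal block, held 48.2% of the set sums in control cells, 55.4% in TFH cells and 49.5% in the libraries labelled Id3-/-. In Id2-/-Id3-/- thymocytes it held 34.8%, beside 33.1% for the d copies and 32.1% for the n copies. The corresponding values of control cells were 26.5% and 25.4%. In the lymphomas the original copies held 79.1%. These sets leave out Trav9-3, which has only its d and n copies here. With Trav9d-3 and Trav9n-3 left out of the whole array, the proximal share in Id2-/-Id3-/- cells was 37.2%, against 52.4% in control cells.

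The lymphomas used few V genes. The Trav sum was 3269.95 normalized counts beside 5853 for Trac, a ratio of 0.559, and of the beta constant genes Trbc1 averaged 1502 against 7492 in control cells and Trbc2 19841 against 18317. The median gene averaged 0.912 normalized counts, 54 of the 103 genes were under 1 and 7 were listed at 0, whereas 17 reached 10. The effective number of genes was 9.21. It took 3 genes to reach 50% of the sum and 9 to reach 90%, and the top 5 held 82.1%. Trav7-2 averaged 964 normalized counts (29.5%), Trav9n-3 602 (18.4%), Trav9d-3 581 (17.8%), Trav7-4 386 (11.8%) and Trav11 152 (4.65%). With the identical copies joined, the Trav9-3 set led at 36.2%, but per exonic length Trav7-2 led at 37.0% against 26.5%. If the 6 libraries had equal Trav totals, 1 library alone could account for 16.7% of the sum. Trav7-2 and the Trav9-3 set were each above this.

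**Figure D4:**
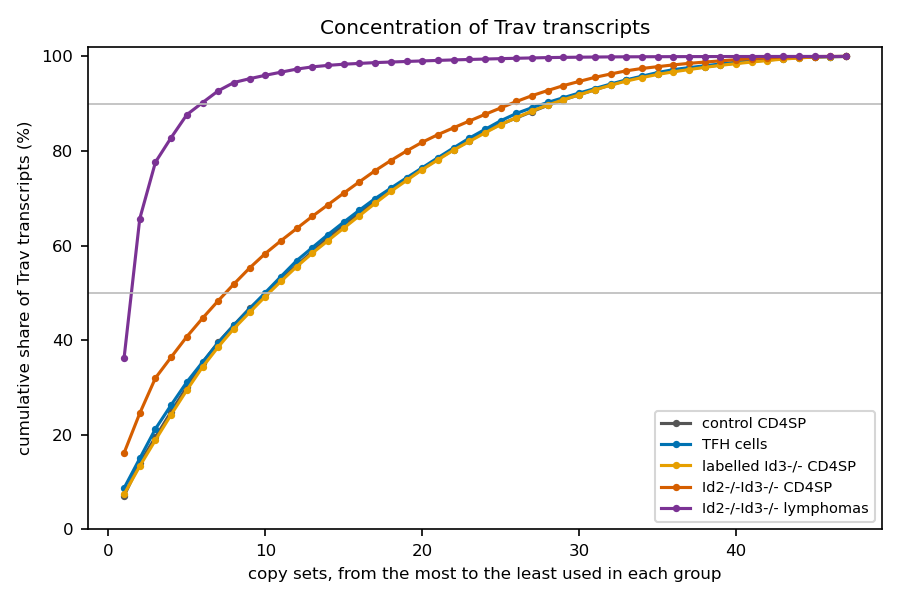
Cumulative share of the Trav sum (percent, vertical axis) over the 47 copy sets, in which original, d and n copies of a gene are summed, from the most to the least used set of each group (horizontal axis). It takes 2 sets to reach 50% in the lymphomas, 8 in Id2-/-Id3-/- CD4SP cells, 10 in TFH cells and 11 in control cells and in the libraries labelled Id3-/-.

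Of the 98 Trav genes 86 were at least 2-fold lower in the lymphomas than in control cells, where 17.2% of the whole table were, and 7 were higher, where 18.2% were. The median log2 ratio was -3.96, against 0.02 for the table. The 7 higher genes were Trav9n-3 (log2 ratio 3.67), Trav9d-3 (3.61), Trav7-2 (2.48), Trav11 (2.22), Trav6-3 (1.71), Trav7-4 (1.33) and the pseudogene Trav13-3 (1.10). Trav6-3 and Trav13-3 were named after their values were seen. Among the 14 families with at least 1% of the sum in either group, Trav11 was 4.71 times its control share, Trav7 3.64 times and Trav9 2.54 times. The next were below 1, with Trav10 at 0.754 and Trav6 at 0.565, and the smallest were Trav3 (0.0156), Trav4 (0.0265), Trav16 (0.0314), Trav5 (0.0369) and Trav15 (0.0512).

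Not all genes that were high in Id2-/-Id3-/- thymocytes were high in the lymphomas. The Trav9-3 set was high in both, at 16.1% and 36.2%. Trav8d-2 and Trav6-1, at 224 and 125.5 normalized counts in the thymocytes, were listed at 0 in the lymphomas, and Trav5-1 averaged 0.13. Trav4d-4 and Trav4n-4 averaged 0.77 each. Conversely Trav7-2 averaged 66.1 normalized counts in Id2-/-Id3-/- thymocytes, below the 171.8 of control cells, and Trav7-4 averaged 65.9 against 153. Lymphomas over Id2-/-Id3-/- thymocytes had 4 higher and 85 lower genes among 98, where 11.1% and 14.4% of the table were. With both groups scaled to the same Trav total, 8 were higher and 81 lower. The 4 higher genes were Trav7-2 (log2 ratio 3.85), Trav7-4 (2.53), Trav6-3 (2.02) and Trav6d-3 (1.58), the last chosen after its values were seen. The family ratios ran from 9.51 for Trav7, 1.79 for Trav11, 1.43 for Trav9, 0.584 for Trav6 and 0.495 for Trav13 down to 0.0784 for Trav12, 0.0332 for Trav5, 0.0298 for Trav16, 0.0238 for Trav3 and 0.0149 for Trav4.

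Single genes set the block shares of the lymphomas. The proximal block held 57.9%, the d and n blocks 20.7% and 21.4%, and the distal genes 0.0398%. Per exonic length the proximal share was 66.8%. Without Trav9d-3 and Trav9n-3 the proximal share was 90.7%, with 4.60% in the d block and 4.61% in the n block. Trav7-2, at 964 normalized counts, was counted as proximal. Its values may hold reads of the d copy Trav7d-2, so the split between these blocks is uncertain. The first gene, Trav1, averaged 0.15 normalized counts and the last, Trav21-dv12, 0.24.

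How far d and n copies could be told apart was read from their sequences and values. Of 25 pairs, 24 had a coding sequence for both copies, and 12 of these were identical. In 7 of the 12 both copies had the same mean in all 5 groups. In 2 identical pairs, Trav12d-1 with Trav12n-1 and Trav14d-1 with Trav14n-1, the copies differed in every group. Trav14d-1 averaged 162.5 normalized counts and Trav14n-1 67.8 in control cells, and 154.6 and 17.1 in Id2-/-Id3-/- cells. Trav3d-3 and Trav3n-3 averaged 39.5 and 75.1 in the libraries labelled Id3-/- and were equal in the other groups. All 3 pairs also have identical transcript sequences in the annotation used here, so single-copy values of such pairs are uncertain and their sums are the safer measure.

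Copies with few coding differences were nevertheless listed with unlike values. Trav10d (chr14:52810997-52811496) and Trav10n (chr14:53122114-53122610) differ at 3 coding bases, in capitals below, and are shown because Trav10n was at least 2-fold higher in Id2-/-Id3-/- cells and Trav10d was not.
Trav10d: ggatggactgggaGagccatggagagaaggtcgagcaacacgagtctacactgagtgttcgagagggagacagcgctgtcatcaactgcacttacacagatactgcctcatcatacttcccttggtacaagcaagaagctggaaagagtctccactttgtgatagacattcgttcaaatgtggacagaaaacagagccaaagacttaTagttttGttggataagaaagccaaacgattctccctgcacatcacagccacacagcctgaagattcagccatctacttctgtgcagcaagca
Trav10n: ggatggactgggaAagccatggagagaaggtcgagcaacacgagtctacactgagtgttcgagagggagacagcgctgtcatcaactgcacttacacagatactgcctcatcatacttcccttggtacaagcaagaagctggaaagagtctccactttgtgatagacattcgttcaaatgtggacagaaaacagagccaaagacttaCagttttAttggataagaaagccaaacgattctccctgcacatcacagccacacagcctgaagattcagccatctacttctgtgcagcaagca
Trav10n averaged 38.2 normalized counts in control cells, 33.7 in TFH cells, 26.3 in the libraries labelled Id3-/-, 112 in Id2-/-Id3-/- thymocytes and 0.29 in lymphomas. Trav10d averaged 10.4, 0, 6.67, 13.5 and 1.86 in the same order. Their exonic lengths are 406 bases for Trav10d and 343 for Trav10n, so they also differ outside the coding sequence. The original copy Trav10, 3 coding edits from Trav10d, averaged 65.0 in control cells and 63.5 in Id2-/-Id3-/- thymocytes. These genes were named after their values were seen. Over all annotated Trav genes of the same family, 26 of the 92 coding sequences compared had an identical relative and 43 had one with at least 99% identity.

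**Figure D5:**
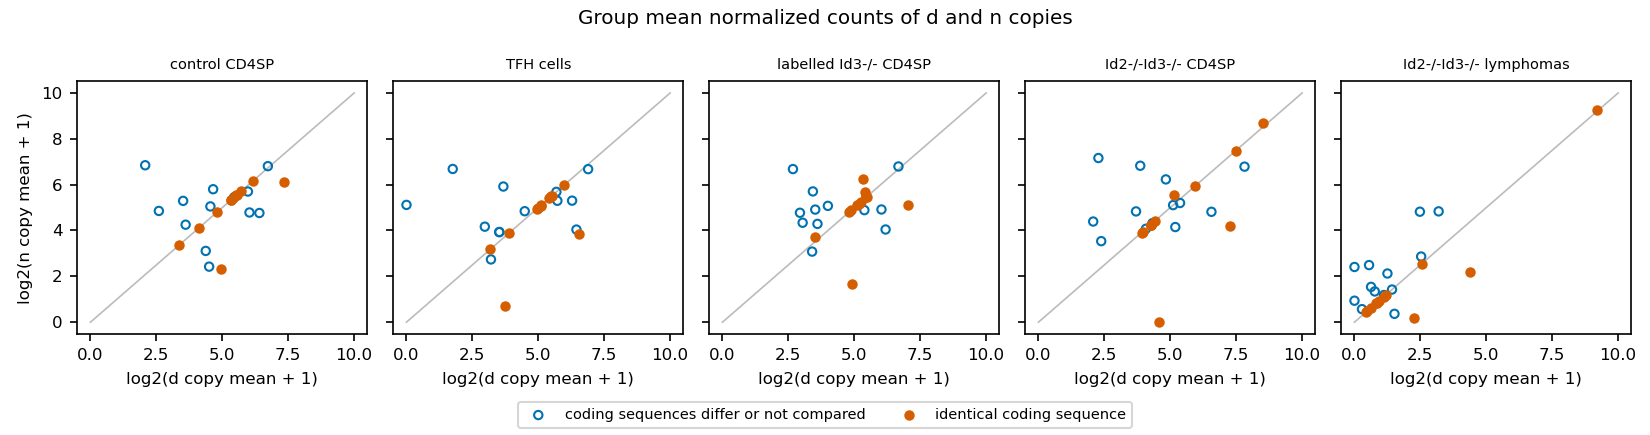
Log2 of the group mean plus 1 of the d copy (horizontal axis) and n copy (vertical axis) of 25 pairs, 1 panel per group, with the line of equal values. Filled points are the 12 pairs with identical coding sequence, 7 of which lie on the line in all 5 groups, and open points are pairs that differ or could not be compared.

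Genes of receptor assembly and of thymocyte lifespan were read beside the V genes. CD4SP and TFH cells are past the CD4+CD8+ stage in which the alpha chain is assembled, so their values do not describe that stage. The study examined CD69-TCRb- CD4+CD8+ thymocytes of Id2fl/fl Id3fl/fl IL7R-Cre mice. It reports no obvious difference from control in their alpha and beta rearrangements. Of all genes tested, 11.8% were higher and 9.8% lower past 2-fold in TFH cells, 5.57% and 4.43% in the libraries labelled Id3-/-, 14.1% and 10.1% in Id2-/-Id3-/- thymocytes, and 18.2% and 17.2% in lymphomas, each against control cells. Counts for these short lists are a description, and those near the shares for all genes are no result about a list. Of 7 constant and CD3 genes in the table, 0 were past 2-fold in TFH cells, the libraries labelled Id3-/- or Id2-/-Id3-/- thymocytes, and 2 were lower in lymphomas (Trbc1 and Cd247). Of 11 recombinase and end-joining genes with enough signal, 1 was higher in Id2-/-Id3-/- thymocytes, the ligase gene Lig4 (552 against 248 normalized counts), and 0 were lower. TFH cells had 1 higher and 2 lower, the libraries labelled Id3-/- 0 and 0, and lymphomas 3 and 1, the higher being Xrcc5, Xrcc6 and Lig4 of end joining. Rag1, which encodes a subunit of the recombinase, averaged 14.2 normalized counts in control, 13.4 in Id2-/-Id3-/- and 0.42 in lymphoma cells. Dntt, which adds bases at the joins, averaged 326, 220 and 482. Of 12 genes tied to thymocyte lifespan or to regulation of the locus, 1 was higher in Id2-/-Id3-/- cells, Myb (6351 against 694), and 1 was lower, Bcl2l1 (315 against 751), which encodes the survival factor Bcl-xL. In the other groups Myb was higher in the libraries labelled Id3-/- (1614 normalized counts), Lef1 was lower in TFH cells (3500.18 against 14495), and Myb was higher and Bcl2l1 lower in lymphomas (6336 and 253).

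Genes listed as markers of other cells also differed between the groups. The study links Sox13 and Zbtb16 to an innate-like signature of the Id2-/-Id3-/- thymocytes themselves. By flow cytometry it found PLZF in most of their CXCR5+ CD4SP cells, of which few were invariant NKT cells. In Id2-/-Id3-/- thymocytes all 4 gamma delta T-cell genes in the table were higher, where 14.1% of the whole table were, with a summed level of 3575 normalized counts against 261 in control cells, 72.1 for TFH, 640 for the Id3-/- labelled libraries and 2107 for lymphomas. Tcrg-C4, a gamma constant gene, averaged 1717 against 39.0. In lymphomas 2 of the 4 were higher, where 18.2% of the table were. Most of their sum there was Sox13 (1616 against 127 normalized counts), while Tcrg-C1 averaged 57.5 against 48.2 and Tcrg-C4 67.5 against 39.0. Zbtb16 averaged 3912 in these thymocytes and 2211 in lymphomas, whereas Klrb1c, Cd160 and Tbx21 averaged 38.1, 71.3 and 22.5 in the thymocytes against 73.7, 57.5 and 62.7 in control cells. Of the 6 CD4 T-cell genes 1 was lower in Id2-/-Id3-/- cells and 2 in lymphomas, and 0 were higher in either. Cd4, at 15039 in control cells, averaged 6565 and 4110, whereas Cd28 averaged 5233 in control cells, 9620 and 9473, and Cd3d averaged 7903, 10159 and 8224. Cd8a averaged 1388 in the lymphomas, 2 of which were sorted as CD8+, and 128 in control cells, and Cd8b1 averaged 460.5 against 588. All 5 B-cell genes were higher in TFH cells, where 11.8% of the table were, at a summed 495 normalized counts against 74.9. The same genes summed to 518 in lymphomas, where 1 of the 5 was higher, Cd79b at 455 against 22.0. The 3 myeloid genes summed to 428 normalized counts in lymphomas and 79.0 in control cells. Of the genes listed for stroma, the epithelial adhesion gene Epcam averaged 3797 in lymphomas, 593 in Id2-/-Id3-/- thymocytes and 70.7 in control cells. The collagen gene Col1a1 averaged 1663, 377 and 24.7, while the epithelial keratin gene Krt5 stayed under 10 in every group. Among CD4+CD8+ thymocyte genes, Ptcra and Rag2 were under 10 in every group. The part of these genes in the Trav values was not tested.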

How the data were processed

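The members, gene lists and comparisons were chosen with earlier results of these data known. Per the labels and the study's methods, the authors sequenced strand-specific libraries on an Illumina HiSeq instrument, used OSA within Array Studio for alignment (mm10), RSEM for quantification and DESeq for normalization of the counts. The sources used here give no versions and not how reads matching several V genes were treated. The deposited signal is the authors' mean of normalized counts per group. Its 39179 rows include 5285 at 0 in all 5 groups. The table also holds the authors' fold changes, p-values and false discovery rates against control, which were not used, and it holds 0 columns with values per sample, so the planned count model could not be fitted. The group means summed to between 13386015 and 15497262, which are not depths. Depth is unknown, and no interval was computed.

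Gene symbols, positions and transcript sequences came from GENCODE M21 (GRCm38). Shares are percentages of the sum of the 103 Trav means. Ratios of levels have 1 normalized count added and were counted where at least 1 group mean reached 10. Genes named are the 5 leading genes and families of each group, the 5 largest and smallest family ratios of each comparison among families with at least 1% of the sum in either group, Trav1, Trav11, Trav11d, Trav5-1, Trav6-1, Trav21-dv12 and members of the gene lists. Other genes were named after their values were seen, among them the copies compared with each other. In addition, 1 gene of the lists and 1 sequence comparison are not reported here. Share, diversity and block calculations were tested on simulated data. Alternatives were other diversity measures, cut points, filters, scales and pseudocounts. Python 3.11.15, numpy 2.4.6, pandas 2.3.3 and matplotlib 3.10.9 were used.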

Additional observations from a re-analysis of the deposited data

How the results depend on the processing

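No paired analysis was possible because the authors' table holds group means only, and leaving out each replicate could not be run for the same reason. Of 80 alternative values, 51 stayed within 5% (counts within 1.5 times) and 29 did not. By the inverse Simpson index the effective number of families was 9.55 in control, 9.27 in TFH, 9.66 in Id3-/- labelled, 8.01 in Id2-/-Id3-/- and 2.98 in lymphoma libraries. By the Shannon index, taken over single genes in place of families, it was 76.6, 69.9, 74.3, 57.7 and 9.21 in the same order. With the distal part taken by gene number, as the 5' genes up to 1 in 3, its share was 24.4%, 20.7%, 22.0%, 32.6% and 20.6% in the same order. Without genes with a Dv name the distal share was 2.64%, 2.39% and 2.66% in the first 3 groups, and the leading family held 22.1% in TFH and 15.8% in Id3-/- labelled libraries. With 5 normalized counts added, 2 genes were higher and 1 lower in the Id3-/- labelled libraries. With equal Trav totals, 2 genes were lower there, and 8 genes were higher in lymphomas than in Id2-/-Id3-/- thymocytes. The 2 alternatives that follow were chosen after the data were seen. Per exonic length the leading family held 18.1% in TFH, 21.4% in Id2-/-Id3-/- and 48.8% in lymphoma libraries. Without Trav9d-3 and Trav9n-3 the distal share was 7.23% in Id2-/-Id3-/- and 0.0624% in lymphoma libraries. The cause of these differences was not tested beyond the construction of each alternative.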
